A study of Mus musculus with 14 samples.

Results

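The adrenomedullin receptor system was described here through 6 genes of the mouse uterus, namely Ramp1, Ramp2, Ramp3, Calcrl, Adm and Adm2, out of 31274 gene symbols in the deposited table. The genes were chosen by name, with Ramp3 picked because its level differed between genotypes at both cycle stages. The genotype differences of Ramp3 are therefore given as a description, with no test. Uteri came from intact, untreated FVB/N mice aged 2 months, collected at diestrus, when luteal progesterone dominates the cycle, or at estrus, which follows the preovulatory estrogen rise. The 2 genotypes were WT and HIF2A cKO, each with 4 libraries at diestrus and 3 at estrus. HIF2A cKO denotes a conditional knockout of HIF2A, a hypoxia-inducible transcription factor whose gene is Epas1. The labels name neither the Cre driver nor the deleted exons, and do not say that each library came from a separate animal. The p-values then rest on the spread among libraries alone, part of which may be technical. In whole tissue, fewer cells of a type and less RNA per cell cannot be told apart.

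Calcrl encodes a G protein-coupled receptor that needs a receptor activity-modifying protein (RAMP) to reach the cell surface and to select its ligand. With RAMP1 it forms the receptor for calcitonin gene-related peptide, and with RAMP2 or RAMP3 it forms the receptors for adrenomedullin, the vasodilator peptide encoded by Adm. Adm2 encodes the related peptide intermedin, and the assembled receptors couple mainly to Gs and cAMP. Adrenomedullin signalling is known for its roles in blood and lymphatic vessels and, in the uterus, in implantation. ADM is a well-known hypoxia-induced gene, and RAMP3 expression is known to respond to estrogen.

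The promoter windows of Ramp3, Adm and Ramp1 are shown because these genes stood on opposite sides in the HIF2A cKO diestrus uterus, with Ramp3 and Adm high and Ramp1 low. Each window runs from 250 bases before to 50 bases after the annotated start in RefSeq on GRCm38.p6, the assembly named mm10, and is 300 bases long. Windows were found for 5 of the 6 genes, all but Ramp2. The Ramp3 window is chr11:6658283-6658582, the Adm window is chr7:110627407-110627706 and the Ramp1 window is chr1:91179572-91179871, all on the plus strand. Capitals mark matches on either strand to GCGTG, a core of the hypoxia response element, and to GGGCGG, the GC box bound by Sp family factors. No matches overlap in these windows.
Ramp3: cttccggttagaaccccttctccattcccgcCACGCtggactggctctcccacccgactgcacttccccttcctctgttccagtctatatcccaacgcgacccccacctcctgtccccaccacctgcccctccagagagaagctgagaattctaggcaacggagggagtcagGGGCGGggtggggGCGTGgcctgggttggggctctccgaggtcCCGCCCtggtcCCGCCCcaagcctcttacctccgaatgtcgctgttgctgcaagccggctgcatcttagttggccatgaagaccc
Adm: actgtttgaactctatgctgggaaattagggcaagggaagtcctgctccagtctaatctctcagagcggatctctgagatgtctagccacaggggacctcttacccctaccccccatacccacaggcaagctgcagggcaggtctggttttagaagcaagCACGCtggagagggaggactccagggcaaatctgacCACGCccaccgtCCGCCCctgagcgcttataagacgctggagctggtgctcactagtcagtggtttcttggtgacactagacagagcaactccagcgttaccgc
Ramp1: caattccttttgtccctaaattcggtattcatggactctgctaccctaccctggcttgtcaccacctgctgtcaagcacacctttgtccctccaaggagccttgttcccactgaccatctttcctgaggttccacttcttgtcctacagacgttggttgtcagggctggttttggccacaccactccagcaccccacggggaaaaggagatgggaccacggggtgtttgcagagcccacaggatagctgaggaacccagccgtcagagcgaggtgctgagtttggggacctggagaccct
The Ramp3 window held GGGCGG 3 times and GCGTG 2 times. The Adm window held GCGTG 2 times and GGGCGG 1 time, and the Ramp1 window held neither. Across all 32851 windows of this length, 32.4% held GCGTG and 35.7% held GGGCGG, and 3 of the 5 windows held each of them. Besides Ramp3 and Adm, the Calcrl window held both, and Calcrl was lower in HIF2A cKO at diestrus. The alternative hypoxia response core ACGTG, found in 19.6% of all windows, was in 0 of the 5. The estrogen receptor half-site AGGTCA (16.3% of windows) and the full palindromic estrogen response element (0.0548% of windows) were likewise in 0 of the 5. AGAACA, a progesterone receptor half-site held by 19% of all windows, was in the Calcrl window alone. A match is a description of letters, and no binding was measured in these data.

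Values are FPKM, fragment counts divided by transcript length and by library size, and the library sums ran from 437879 to 497688 FPKM. Read numbers were unknown. For 10 of the 14 libraries the low values gave a relative depth, which differed by up to 1.89 times. Uterine genes were present in every library, with Pgr at 22.1 to 105.9 FPKM and Esr1 at 73.3 to 111.8 FPKM. Markers of neighbouring tissues were low but present in part. The ovary genes Cyp19a1 and Amh reached 0.032 and 0.277 FPKM, while Star reached 9.57, the oviduct gene Ovgp1 7.84 and the adipocyte gene Adipoq 20.04 FPKM. The sum of 5 oviduct and ovary markers was 10.3 to 12.98 FPKM in WT diestrus, and 6.28, 5.99, 12.9 and 6.11 FPKM in HIF2A cKO diestrus, so it was lower in all but the library numbered 3; its part in the results was not tested. Epas1 itself showed no loss in HIF2A cKO. Its mean was 39.5 FPKM in HIF2A cKO and 34.8 FPKM in WT at diestrus (exact two-sided permutation p = 0.257), and 41.2 against 32.9 FPKM at estrus (exact p = 0.10, the smallest that 3 against 3 allows). Gene-level FPKM does not show whether an exon is missing, so this neither checks nor contradicts the labels. The diestrus libraries numbered 3 stood apart in both genotypes. They held the highest Pecam1 of their groups, 72.0 FPKM in WT and 61.5 FPKM in HIF2A cKO, and the highest sums over 12 endothelial markers, 392.2 and 330.9 FPKM. The diestrus genotype differences of the members are given with and without them. The genotype counts of the gene lists at diestrus are given both ways where they changed.

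Ramp3 (chr11, 6658521 to 6677475, plus strand) was several times higher in HIF2A cKO uterus at diestrus than in WT uterus at either stage. The WT diestrus libraries read 35.0, 65.7, 11.7 and 20.5 FPKM in the order of their numbers, a mean of 33.2 ± 23.7 (SD, n = 4). The HIF2A cKO diestrus libraries read 318.8, 360.4, 93.5 and 245.6 FPKM, a mean of 254.6 ± 117 (SD, n = 4). The lowest HIF2A cKO library lay above the highest WT library, and in both genotypes the library numbered 3 was the lowest. The ratio of the means was 7.66, and the difference on the log2(FPKM + 1) scale was 3.00 with a standard error (SE) of 0.467. Without the libraries numbered 3 the means were 40.4 ± 23.1 and 308.3 ± 58.1 FPKM (SD, n = 3).

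At estrus the genotypes lay closer together. WT read 28.5, 24.2 and 24.4 FPKM and HIF2A cKO read 44.3, 39.3 and 39.4 FPKM, so the groups did not overlap, with HIF2A cKO higher. The means were 25.7 ± 2.40 and 41.0 ± 2.85 FPKM (SD, n = 3), a ratio of 1.59 and a log2 difference of 0.65 (SE 0.539). The difference between the genotypes at estrus minus that at diestrus was -2.35 (SE 0.713), given with no test because it is made of the contrasts Ramp3 was picked on. Across 24 alternative fits this value ran from -2.77 to -1.96.

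Within HIF2A cKO, Ramp3 was 6.21 times lower at estrus than at diestrus, a log2 difference of -2.44 (SE 0.505), with no overlap. In WT the diestrus libraries lay on both sides of the estrus libraries, and the log2 difference was -0.10 (SE 0.505). Both changes share libraries with the contrasts Ramp3 was picked on, so no p is given. Ordered by mean, Ramp3 was highest in HIF2A cKO at diestrus, then in HIF2A cKO at estrus, WT at diestrus and WT at estrus, and of these 3 steps only the first separated groups without overlap.

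**Figure D1:**
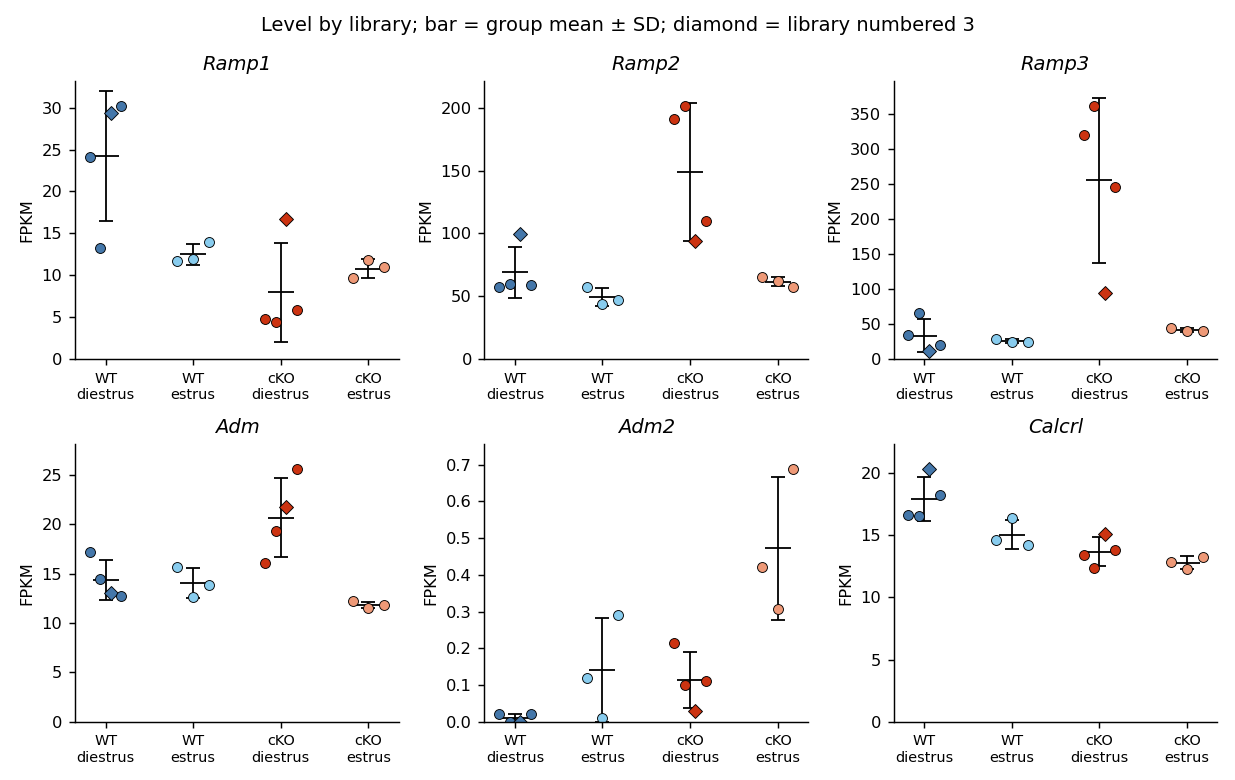
FPKM of the 6 genes in each of the 14 libraries, 1 panel per gene, with groups on the horizontal axis, points for libraries (diamonds for the diestrus libraries numbered 3) and bars for the group mean ± SD. Ramp3 in HIF2A cKO diestrus spans 93.5 to 360.4 FPKM, above every other library, while Ramp1 is lowest in 3 of the 4 libraries of that group.

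Ramp1 (chr1, 91179822 to 91225196, plus strand), the RAMP of the calcitonin gene-related peptide receptor, was lower in HIF2A cKO at diestrus, where Ramp3 was higher. WT diestrus libraries read 24.1, 13.3, 29.4 and 30.2 FPKM, and HIF2A cKO diestrus libraries read 4.83, 4.46, 16.8 and 5.83 FPKM. The HIF2A cKO library numbered 3 lay above the lowest WT library, so the groups overlapped through it, and the other 3 lay below all WT libraries. The means were 24.3 ± 7.78 and 7.97 ± 5.89 FPKM (SD, n = 4), and Ramp1 fell by 1.62 on the log2 scale in HIF2A cKO (SE 0.334, limma adjusted p = 0.0072). Without the libraries numbered 3 the difference was -1.90 (limma adjusted p = 0.000368).

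At estrus Ramp1 read 11.7, 11.9 and 13.96 FPKM in WT and 9.63, 11.8 and 11.0 FPKM in HIF2A cKO. These groups overlapped, and the difference of -0.20 (SE 0.385) did not pass the test (limma adjusted p = 0.97). The cycle change of Ramp1 was -0.84 in WT (limma adjusted p = 0.062) and 0.58 in HIF2A cKO (limma adjusted p = 0.181), and neither passed. Both outcomes depended on whether the HIF2A cKO diestrus library numbered 3 was kept, and on some other settings. Without it both passed, at -0.84 (limma adjusted p = 0.00585) and 0.97 (limma adjusted p = 0.00333), as did their difference of 1.81 (limma adjusted p = 0.0117), which was 1.42 (limma adjusted p = 0.204) with it. The WT value stayed the same, since that library enters the WT test only through the spread shared by all groups in the fit. The WT change also passed without WT diestrus replicate 2, at -1.09 (limma adjusted p = 0.0187).

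Ramp2 (chr11, 101246028 to 101259546, plus strand), the RAMP of the main vascular adrenomedullin receptor, was the most abundant RAMP by mean FPKM in WT uterus, although Ramp3 lay above it in WT diestrus library 2. WT diestrus libraries read 57.7, 59.8, 99.3 and 58.8 FPKM, and HIF2A cKO diestrus libraries read 191.2, 201.1, 94.0 and 109.5 FPKM. The WT library numbered 3 was high and the HIF2A cKO library numbered 3 was low, so these 2 crossed and the groups overlapped through them. The mean was 68.9 ± 20.3 FPKM in WT and 148.9 ± 55.0 FPKM in HIF2A cKO (SD, n = 4). Ramp2 rose by 1.06 on the log2 scale in HIF2A cKO (SE 0.241, limma adjusted p = 0.0102). Without the libraries numbered 3 the means were 58.8 ± 1.08 and 167.2 ± 50.3 FPKM (SD, n = 3), with no overlap and a log2 difference of 1.44 (limma adjusted p = 0.000576).

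Across the cycle Ramp2 fell in HIF2A cKO by 1.18 on the log2 scale (SE 0.260, limma adjusted p = 0.00156), from 148.9 to 61.7 ± 3.91 FPKM. Its estrus libraries read 65.4, 62.0 and 57.6 FPKM, all below the diestrus libraries. In WT the estrus libraries, at 57.4, 44.1 and 47.0 FPKM, also lay below all diestrus libraries, but the difference of -0.44 (SE 0.260) did not pass (limma adjusted p = 0.165). At estrus HIF2A cKO was higher by 0.32 (SE 0.278, limma adjusted p = 0.894), without overlap between the groups.

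Vps25, a plus-strand gene of endosomal sorting at 101253707 to 101259549 on chr11, overlaps Ramp2, and reads of overlapping genes may have been shared between them. Vps25 was at 64.2 ± 4.29 FPKM in WT and 65.2 ± 4.15 FPKM in HIF2A cKO at diestrus (SD, n = 4), a difference of 0.02 (limma adjusted p = 0.812). Markers of endothelial cells, a main site of Ramp2, were followed beside it, and all 12 were tested. Their sum was 224.2 to 392.2 FPKM in WT and 214.6 to 330.9 FPKM in HIF2A cKO at diestrus, ranges that overlapped. Of the 12, 1 rose and 0 fell between genotypes at diestrus, beside 23.9% of all tested genes passing. The riser was Kdr, the main receptor of VEGF-A, at 0.53 (SE 0.112, limma adjusted p = 0.00798). With the libraries numbered 3 left out, 2 rose and 2 fell, beside 32.3% of all tested genes passing. The median over the 12 was -0.13, beside 0.02 over all tested genes, and the part of vessel content in the Ramp2 difference was not tested.

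The 3 RAMP genes together reached 126.4 ± 15.6 FPKM in WT and 411.5 ± 163 FPKM in HIF2A cKO at diestrus (SD, n = 4). At estrus they reached 87.7 ± 8.89 and 113.4 ± 5.68 FPKM (SD, n = 3). Since FPKM is scaled by length, each gene can be given as a share of this sum. In WT diestrus Ramp2 made up 54.2% ± 11.8, Ramp3 26.1% ± 16.7 and Ramp1 19.7% ± 7.45 (SD, n = 4). In HIF2A cKO diestrus Ramp3 made up 59.9% ± 9.74, Ramp2 37.3% ± 6.52 and Ramp1 2.89% ± 3.57 (SD, n = 4). By mean share, Ramp2 led in the first group and Ramp3 in the second. In WT library 2 Ramp3 led (47.4% against 43.1%), and in HIF2A cKO library 3 Ramp2 and Ramp3 were nearly equal (46.0% and 45.8%).

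The Ramp3 share was 29.95%, 47.4%, 8.35% and 18.8% in the WT diestrus libraries and 61.9%, 63.7%, 45.8% and 68.1% in the HIF2A cKO diestrus libraries. WT library 2 lay above HIF2A cKO library 3, so the shares overlapped at that pair. At estrus the composition was alike in order, with Ramp2 first in both genotypes at 56.3% ± 2.22 in WT and 54.3% ± 0.846 in HIF2A cKO (SD, n = 3). Ramp3 was at 29.3% ± 0.806 and 36.1% ± 1.24, and Ramp1 at 14.4% ± 2.22 and 9.55% ± 1.29 (SD, n = 3).

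**Figure D2:**
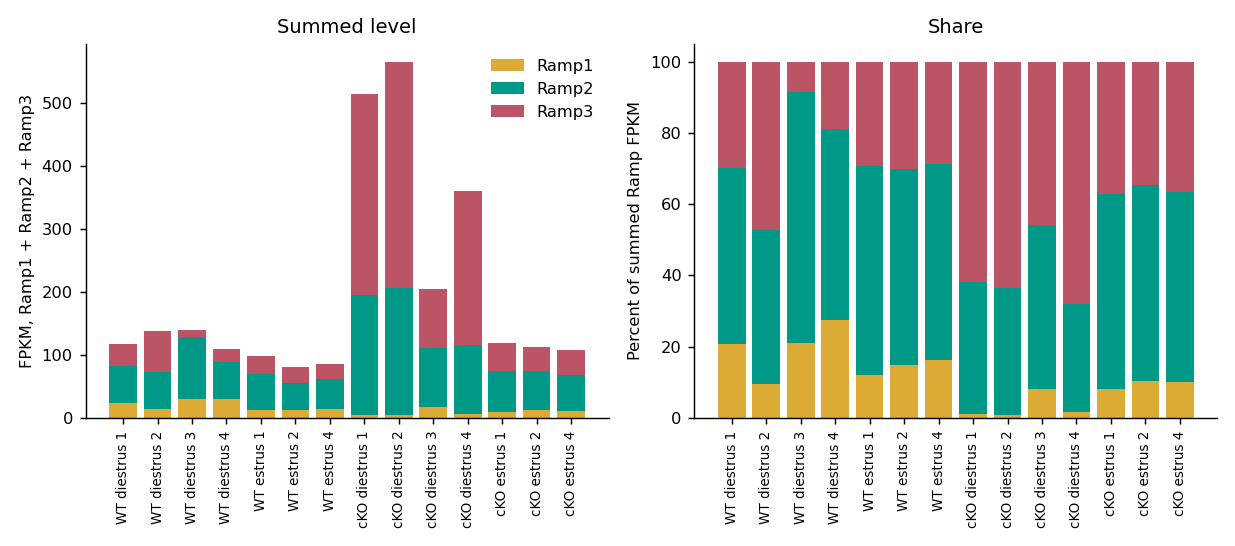
Ramp1, Ramp2 and Ramp3 stacked in 1 bar per library, as FPKM (left) and as percent of their sum (right), ordered by group. Ramp3 holds 45.8% to 68.1% of the sum in HIF2A cKO diestrus and 8.35% to 47.4% in WT diestrus.

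Calcrl (chr2, 84330626 to 84425411, minus strand), the receptor shared by all 3 RAMPs, was lower in HIF2A cKO at diestrus by a small margin and without overlap. WT diestrus libraries read 16.6, 16.5, 20.3 and 18.2 FPKM, and HIF2A cKO diestrus libraries read 13.4, 12.4, 15.1 and 13.8 FPKM. The means were 17.9 ± 1.78 and 13.7 ± 1.13 FPKM (SD, n = 4), and Calcrl fell by 0.36 on the log2 scale (SE 0.0778, limma adjusted p = 0.00804). Without the libraries numbered 3 the difference was -0.35 (limma adjusted p = 0.00442). The sum of the RAMPs per unit of Calcrl FPKM at diestrus was 7.08 ± 0.983 in WT and 30.9 ± 14.2 in HIF2A cKO (SD, n = 4). At estrus this ratio was 5.86 ± 0.895 and 8.88 ± 0.640 (SD, n = 3).

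Calcrl also fell from diestrus to estrus in WT, by 0.24 on the log2 scale (SE 0.0841, limma adjusted p = 0.0294), to 14.6, 16.4 and 14.2 FPKM. This call was lost without WT diestrus replicate 3 (-0.18, limma adjusted p = 0.0774) or replicate 4 (-0.23, limma adjusted p = 0.0579), and without WT estrus replicate 1 (limma adjusted p = 0.0887) or replicate 4 (limma adjusted p = 0.112). It was also lost under median-of-ratios scaling (-0.16, limma adjusted p = 0.11). In HIF2A cKO the cycle change was -0.09 (SE 0.0841, limma adjusted p = 0.382), with estrus libraries at 12.9, 12.3 and 13.3 FPKM. The genotype difference at estrus was -0.22 (SE 0.0899, limma adjusted p = 0.623), again without overlap.

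Adm (chr7, 110627661 to 110629820, plus strand), which encodes the adrenomedullin precursor, was higher in HIF2A cKO at diestrus and fell from there to estrus. WT diestrus libraries read 17.3, 14.4, 13.1 and 12.8 FPKM, and HIF2A cKO diestrus libraries read 16.1, 19.3, 21.8 and 25.6 FPKM. The groups overlapped at HIF2A cKO library 1 and WT library 1. With means of 14.4 ± 2.04 and 20.7 ± 4.02 FPKM (SD, n = 4), Adm rose by 0.49 (SE 0.126, limma adjusted p = 0.0173). The call was lost without WT diestrus replicate 4 (0.44, limma adjusted p = 0.0507), without both libraries numbered 3 (0.42, limma adjusted p = 0.0513) and with library weights, which cut the value to 0.27 (limma adjusted p = 0.0603).

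From diestrus to estrus Adm fell by 0.74 in HIF2A cKO (SE 0.136, limma adjusted p = 0.000444), to 12.2, 11.5 and 11.8 FPKM, below every other library. In WT the estrus libraries at 15.7, 12.7 and 13.8 FPKM overlapped the diestrus libraries, with a difference of -0.03 (SE 0.136, limma adjusted p = 0.873). The difference between these cycle changes, -0.71 (SE 0.192), had an unadjusted p of 0.00286 and did not pass after adjustment over all genes (limma adjusted p = 0.142). At estrus HIF2A cKO was lower by 0.22 (SE 0.145, limma adjusted p = 0.823), without overlap.

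Adm2 (chr15, 89322720 to 89324731, plus strand) was near 0 and never reached 1 FPKM in any library, so it did not enter the test. WT diestrus libraries read 0.021, 0, 0 and 0.020 FPKM, WT estrus 0.120, 0.011 and 0.291, HIF2A cKO diestrus 0.215, 0.101, 0.029 and 0.110, and HIF2A cKO estrus 0.421, 0.307 and 0.688. HIF2A cKO lay above WT at each stage without overlap, at levels where FPKM is least precise. The other ligands of these receptors were also low. Calca, which encodes calcitonin and calcitonin gene-related peptide, was below 0.3 FPKM in 13 libraries and at 7.14 FPKM in WT diestrus replicate 3. Calcb, which encodes the second form of that peptide, reached 0.207 FPKM at most, and Iapp, the amylin gene, was at 0 throughout.

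Between genotypes at diestrus, all 4 tested members other than Ramp3 passed the test, 2 higher (Ramp2, Adm) and 2 lower (Ramp1, Calcrl). Of the 14278 tested genes 23.9% passed, in either direction. All 4 were lost when the diestrus libraries were fitted alone, at limma adjusted p of 0.0578 (Ramp1), 0.0649 (Ramp2), 0.0806 (Adm) and 0.0577 (Calcrl). With the replicate number as a block in the diestrus libraries alone, Ramp2 (limma adjusted p = 0.0693) and Adm (limma adjusted p = 0.102) did not pass, while Ramp1 (limma adjusted p = 0.0249) and Calcrl (limma adjusted p = 0.0287) did. Of these 4, 1 had groups that did not overlap, Calcrl, beside 15.8% of tested genes.

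At estrus 0 of these 4 passed by limma, and 1 had an unadjusted p under 0.05, where 0.105% of genes passed. With library weights Calcrl passed (-0.23, limma adjusted p = 0.0343). Groups did not overlap at estrus for 3 of these 4, Ramp2, Adm and Calcrl, beside 26.4% of tested genes. For the difference between the cycle changes, 0 of 4 passed by limma, 2 had an unadjusted p under 0.05 (Ramp1, Adm), and 0.0350% of genes passed.

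Across the cycle in WT, 1 of the 4 tested members other than Ramp3 passed, Calcrl, which was lower at estrus, where 57.2% of genes passed and 34.1% were lower. Groups of 2 of these 4 did not overlap, Ramp2 and Calcrl, beside 61.1% of tested genes. In HIF2A cKO, 2 of these 4 passed, Ramp2 and Adm, both lower at estrus, where 62.0% of genes passed and 36.5% were lower. Groups of 2 of the 4 did not overlap, again Ramp2 and Adm, beside 63.1% of tested genes. With 4 genes, these counts are given as a description. The HIF2A cKO diestrus and WT diestrus libraries enter both a cycle and a genotype comparison, so the comparisons are not independent of each other.

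**Figure D3:**
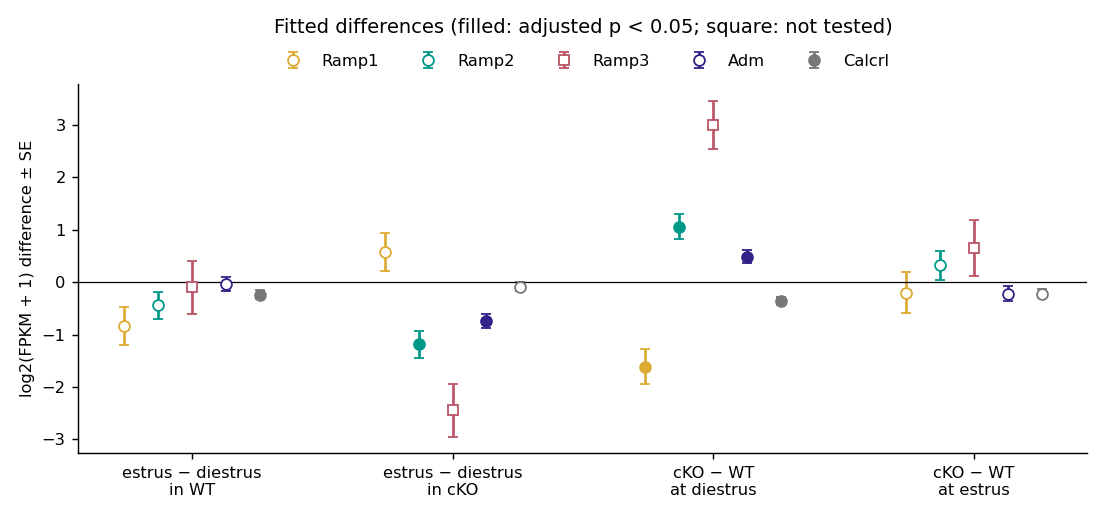
Difference in log2(FPKM + 1) of each tested gene in the 4 comparisons, with bars for the SE from the limma fit of 14 libraries. Filled circles passed the test, open circles did not, and Ramp3 is drawn as open squares since it was not tested; at diestrus, HIF2A cKO minus WT runs from -1.62 for Ramp1 to 3.00 for Ramp3, while at estrus the 5 values lie between -0.22 and 0.65.

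The RAMP genes did not all vary in 1 direction across libraries. Over the 14 libraries, on the log2 scale, Ramp1 and Ramp3 had a Pearson r of -0.83, and -0.91 after the group means were taken out. Ramp2 and Ramp3 had an r of 0.79, but 0.16 after the group means were taken out. Ramp3 and Adm likewise had 0.68 and 0.04, and Ramp3 and Calcrl -0.59 and -0.83. The inverse relation of Ramp1 and Ramp3 was thus also seen between libraries of 1 group, among them the 2 diestrus libraries numbered 3, where Ramp3 was low and Ramp1 was above its group mean. These are descriptions over points that share group and library.

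**Figure D4:**
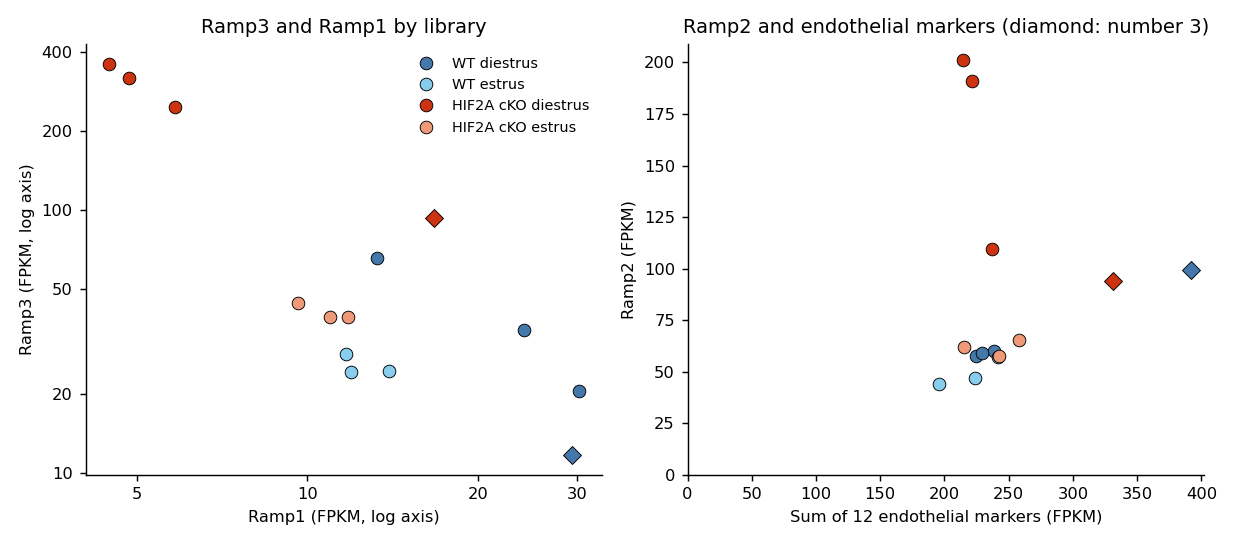
Ramp3 against Ramp1 in FPKM on logarithmic axes (left), and Ramp2 in FPKM against the sum of 12 endothelial markers in FPKM (right), 1 point per library coloured by group, with diamonds for the diestrus libraries numbered 3. Of the 4 HIF2A cKO diestrus libraries, 3 lie at the upper left, with Ramp3 at 245.6 FPKM or more and Ramp1 at 5.83 FPKM or less, and on the right the 2 libraries numbered 3 have the highest endothelial sums, 392.2 and 330.9 FPKM.

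The other proteins that bind these receptors or their ligands, from lists drawn up by function, were followed as well. Ackr3, an atypical receptor that takes up adrenomedullin and CXCL12, was among 4 receptor and coreceptor partners, of which 3 were tested. At diestrus it read 23.3, 19.7, 17.5 and 24.2 FPKM in WT and 32.0, 44.4, 28.7 and 29.3 FPKM in HIF2A cKO, with no overlap, and rose by 0.63 (SE 0.130, limma adjusted p = 0.00721). It was the only 1 of the 3 to pass in that comparison, in which 23.9% of all tested genes passed. Ackr3 fell from diestrus to estrus by 0.70 in WT (limma adjusted p = 0.00106) and by 1.54 in HIF2A cKO (limma adjusted p = 1.84e-06). Crcp, which encodes a component of calcitonin gene-related peptide receptor signalling, fell by 0.35 across the cycle in HIF2A cKO (limma adjusted p = 0.00155). Gpr182, once proposed as an adrenomedullin receptor, did not pass in any comparison of the 14 libraries. Without the libraries numbered 3, Gpr182 rose across the cycle in HIF2A cKO, where 67% of all tested genes passed. The calcitonin receptor gene Calcr, which pairs with RAMPs as the amylin receptor, was at 0.019 FPKM or less.

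Of the 2 genes described for amidation and clearance of the peptide, 1 fell and 0 rose between genotypes at diestrus, where 23.9% of all tested genes passed. Mme, the peptidase neprilysin, read 33.0, 46.0, 46.8 and 33.2 FPKM in WT and 6.19, 5.19, 37.8 and 7.36 FPKM in HIF2A cKO. It was low in all HIF2A cKO diestrus libraries except number 3, which lay within the WT range, and it fell by 1.87 (SE 0.451, limma adjusted p = 0.0131), or by 2.40 without the libraries numbered 3 (limma adjusted p = 5.70e-05). Mme fell by 2.25 across the cycle in WT (limma adjusted p = 0.00175), with -0.92 in HIF2A cKO (limma adjusted p = 0.12), which was -0.31 without the libraries numbered 3 (limma adjusted p = 0.186). Pam, the amidating enzyme, passed in none of these.

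Among 6 scaffold and trafficking genes, 3 rose and 0 fell between genotypes at diestrus, where 23.9% of all tested genes passed. Slc9a3r1, which encodes the scaffold NHERF1 that binds the tail of RAMP3, rose by 0.43 (SE 0.115, limma adjusted p = 0.019), the kinase gene Adrbk1 by 0.22 (limma adjusted p = 0.0216) and Nsf, which also binds that tail, by 0.21 (limma adjusted p = 0.0448). Arrb1, Arrb2 and Grk5 had differences of -0.12, -0.19 and -0.01 and did not pass, but without the libraries numbered 3 Arrb2 fell by 0.26 (limma adjusted p = 0.0439). Nsf fell across the cycle by 0.24 in WT (limma adjusted p = 0.0178), where it was the 1 scaffold gene to pass, and by 0.54 in HIF2A cKO (limma adjusted p = 5.54e-05). Over all tested genes, 57.2% passed across the cycle in WT and 62.0% in HIF2A cKO. In HIF2A cKO Arrb1 and Arrb2 rose, by 0.42 and 0.33, and Adrbk1 and Grk5 fell, by 0.16 and 0.29. The fall of Adrbk1 was lost without the libraries numbered 3 (limma adjusted p = 0.0806). The median difference of the 6 genes at diestrus between genotypes was 0.10, beside 0.02 over all tested genes.

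Downstream of the receptors, 23 of 24 genes of Gs and cAMP signalling were tested. Between genotypes at diestrus 6 rose and 2 fell, beside 23.9% of all tested genes passing, with a median of 0.02 beside 0.02 over all tested genes. Without the libraries numbered 3, 6 of the 23 rose and 4 fell, beside 32.3% of all tested genes passing. In the fit of 14 libraries, the adenylyl cyclase gene Adcy1 went from 1.13 ± 0.127 FPKM in WT to 3.98 ± 1.66 FPKM in HIF2A cKO (SD, n = 4). This was a rise of 1.16 (limma adjusted p = 0.00373), and Adcy5 rose by 0.76 (limma adjusted p = 0.0388). From diestrus to estrus 3 rose and 8 fell in WT, and 4 rose and 9 fell in HIF2A cKO. Over all tested genes 57.2% and 62.0% passed in these comparisons, larger shares than in this list. The phosphodiesterase gene Pde4c rose in both, by 1.11 and 1.19, while Adcy3 fell by 0.68 in WT and Adcy1 by 1.67 in HIF2A cKO. Of 13 other class B peptide receptor genes, relatives of Calcrl, 4 were tested. At diestrus 0 rose and 1 fell in HIF2A cKO, Vipr2, at -1.26 (limma adjusted p = 0.023). Without the libraries numbered 3, 2 fell, beside 32.3% of all tested genes passing.

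Hormone and hypoxia responsive genes were followed in the same comparison, in which 23.9% of all tested genes passed and the median difference was 0.02. Of 18 tested estrogen response genes, 5 rose and 0 fell in HIF2A cKO at diestrus, with a median of 0.87. They included Inhbb, an activin and inhibin subunit gene, at 3.34 (limma adjusted p = 0.00357), and Gadd45g, a growth arrest gene, at 2.53 (limma adjusted p = 0.00213). Both also fell across the cycle in HIF2A cKO, by 1.68 and 2.64. Of the 18 genes, 9 rose and 1 fell across the cycle in WT, where 57.2% of all tested genes passed. In HIF2A cKO 7 rose and 4 fell, where 62.0% passed. The list summed to 501.3 to 1144 FPKM in WT and 1036 to 2245 FPKM in HIF2A cKO at diestrus, ranges that overlapped. At estrus the sums were 6939 to 10175 FPKM in WT and 11036 to 13796 FPKM in HIF2A cKO. Of 15 tested progesterone response genes 0 rose and 9 fell in HIF2A cKO at diestrus, with a median of -0.67. They were led by the hedgehog ligand gene Ihh at -2.67 (limma adjusted p = 0.00921) and Fst, the follistatin gene, at -2.37 (limma adjusted p = 0.0268). Between genotypes at diestrus the estrogen list's share of genes passing was near that of all genes. Without the libraries numbered 3, where 32.3% of all tested genes passed, 7 of 18 estrogen response genes rose and 0 fell, and 0 of 14 progesterone response genes rose and 10 fell.

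The summed level of the progesterone response list at diestrus was 684.5, 556.6, 815.0 and 771.4 FPKM in WT and 320.0, 346.9, 673.0 and 385.7 FPKM in HIF2A cKO. HIF2A cKO library 3, in which Ramp1 was highest and Ramp3 lowest of its group, was again the highest there. At estrus these sums were 321.9 to 344.2 FPKM in WT and 283.1 to 286.1 FPKM in HIF2A cKO. The part of hormone response in the differences of the RAMP genes was not tested.

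Of 17 hypoxia targets, 7 rose and 1 fell in HIF2A cKO at diestrus, with a median of 0.39. Angptl4, an inhibitor of lipoprotein lipase, rose by 1.17 (limma adjusted p = 0.0131), the glycolytic enzyme gene Eno1 by 0.62 (limma adjusted p = 0.00612), and the mitophagy receptor gene Bnip3 fell by 0.54 (limma adjusted p = 0.00255). With both libraries numbered 3 left out, 13 of the 17 rose and 1 fell. In the fit of 14 libraries, none of the estrogen, progesterone or hypoxia genes passed between genotypes at estrus, where 0.105% of all tested genes passed. Without the libraries numbered 3, 4 hypoxia targets were higher and 1 progesterone response gene was lower at estrus. In that fit 0.445% of all tested genes passed at estrus. Among cell type markers at diestrus, 2 of 10 epithelial markers rose and 1 fell (5 and 1 without the libraries numbered 3), with summed levels of 496.8 to 678.3 FPKM in WT and 583.6 to 1053 FPKM in HIF2A cKO. Of 8 smooth muscle, 7 macrophage and 5 lymphatic markers, 0 passed in either direction, but without the libraries numbered 3, 1, 3 and 1 of them fell. Of 5 mast cell markers, 3 fell, with sums of 53.0 to 72.7 FPKM in WT and 33.1 to 54.4 FPKM in HIF2A cKO. Of 7 tested stromal markers, 1 rose and 1 fell (1 and 3 without the libraries numbered 3). Of 5 mesothelial markers, 1 fell and 0 rose. At diestrus 23.9% of all tested genes passed between genotypes, and 32.3% without the libraries numbered 3. The part of cell composition in the RAMP differences was not tested.

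Among 10804 genes averaging 5 FPKM or more in some group, those whose levels followed Ramp3 most closely over the 14 libraries were Mast2 (Pearson r 0.97), Rgs3 (0.96), Afg3l1 (0.96), Dohh (0.96) and Tmed2 (0.96). Rgs3, a regulator of G protein signalling, was at 25.1 ± 1.70 FPKM in WT and 52.5 ± 9.55 FPKM in HIF2A cKO at diestrus (SD, n = 4), and at 24.95 ± 3.32 and 28.3 ± 0.842 FPKM at estrus (SD, n = 3). Since Rgs3 was picked for its likeness to Ramp3 over these same libraries, its genotype difference at diestrus follows from that choice. The closest to Ramp1 were Ehbp1 (0.97), Frs2 (0.97) and Tle4 (0.96), and the closest to Ramp2 were St3gal4 (0.97), Wnk4 (0.97) and Gpr153 (0.97). Wnk4, a kinase gene regulating ion transport, is the next gene downstream of Ramp2, with 1020 bases between them. It rose by 0.62 in HIF2A cKO at diestrus and fell by 0.72 across the cycle in HIF2A cKO. Wnk4 was picked for its likeness to Ramp2 over these same libraries, so no p is given. Adm was followed most closely by Nr2c2ap (0.87), Ddx19a (0.87) and Wrap53 (0.86), and Calcrl by Sulf1 (0.93), Gcnt1 (0.92) and Ankrd29 (0.92).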

How the data were processed

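RNA sequencing of 14 mouse uterus libraries was used, grouped by the labels' genotype and stage. The authors deposited 1 table of FPKM values, made with TopHat2 2.0.4 and Cufflinks 2.0.2 on mm10 per the submitters' processing notes. Strand setting, annotation and scaling across libraries were not given in the sources used here, so reads of overlapping genes cannot be told apart. Besides Vps25 at Ramp2, the antisense gene model Gm28863 overlaps Adm and had no deposited values. The minus-strand pseudogene Gm11978 overlaps Ramp3, and its group means were 0.045 FPKM or less. Depth is unknown beyond the relative values given.

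The analysis took log2(FPKM + 1) to limma 3.58.1 in R 4.3.3, with 14 libraries in 1 fit of group means, an eBayes trend and Benjamini-Hochberg adjustment at 0.05. It covered the 14278 genes that reached 1 FPKM in 3 or more libraries, leaving out 7 genes listed at 0 in a whole group and at 50 FPKM or more on average in another. Differences on this scale understate changes of low genes. The script was tested on simulated data. Epas1 was tested by exact permutation (SciPy 1.17.1). The genes and lists were chosen with earlier results of these data known.

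Named were all 6 genes and Epas1, the 5 genes most like Ramp3 and the 3 most like each other gene, all genes of the ligand, partner, processing and scaffold lists, and the largest called changes of each other list; 1 item is not reported here. Kdr, Vps25 and the tissue markers were named after their values were seen. Coordinates are from GENCODE M21. Alternatives were other pseudocounts, filters and scalings, groups fitted alone, library weights, a replicate block and each library left out. Leaving out both diestrus libraries numbered 3, and the block in the diestrus libraries alone, were added after the data were seen. Residuals of same-numbered diestrus libraries of the 2 genotypes correlated at 0.321, 0.115, 0.622 and 0.217 over genes. Differently numbered diestrus pairs ran from -0.454 to 0.262, and the pairs numbered 2 and 4 lay within that range. At estrus the same-numbered pairs were at 0.0805, 0.0958 and -0.0475. The main fit did not pair libraries, and the replicate block was used in alternatives only.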

Additional observations from a re-analysis of the deposited data

Results flagged for a closer look

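In 7 of the 37 groups of 4 libraries examined, 1 library stood far from the rest of its group by Dixon's criterion. The criterion picks about 1 in 20 independent groups by chance. These groups are genes measured in the same 8 diestrus libraries, so they are not independent and the count is a description. Only diestrus groups held 4 libraries, and all 7 were diestrus libraries numbered 3. Ramp1 stood at 16.8 FPKM in HIF2A cKO diestrus replicate 3, above the others of that group at 4.46 to 5.83 FPKM. In the same library Mme was at 37.8 FPKM, Arrb1 at 22.0 FPKM and Arrb2 at 15.7 FPKM, each the highest of its group. In WT diestrus replicate 3, Ramp2 stood at 99.3 FPKM beside 57.7 to 59.8 FPKM in the other 3 libraries. Epas1 at 43.5 FPKM and Calca at 7.14 FPKM were likewise highest in that library. Endothelial marker sums were highest in both libraries numbered 3, at 392.2 FPKM in WT and 330.9 FPKM in HIF2A cKO; the part of this in the values above was not tested.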

How the results depend on the processing

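No value that passed a test changed sign under an alternative. The falls of Ramp2 and Adm from diestrus to estrus in HIF2A cKO passed under all 25 alternatives run for them. The count of members passing across the WT cycle, 1 in the report, was 0 under median-of-ratios scaling and under quantile normalization, 2 with library weights, 2 without both diestrus libraries numbered 3, and 0 to 2 with each library left out. The count at diestrus between genotypes, 4, was 0 with the groups fitted alone and 2 in the diestrus libraries alone with the replicate block. At estrus the count of 0 became 1 with library weights. For the difference of cycle changes, 0 became 3 with library weights, 2 without both libraries numbered 3, and 0 to 1 with each library left out. In the fit of 14 libraries the replicate block lost no diestrus call, and with it the Ramp1 cycle change in HIF2A cKO passed (0.83, limma adjusted p = 0.0134); it changed no other call of these genes.

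Over all genes, the 3410 passing between genotypes at diestrus became 401 with the groups alone, 2034 in the diestrus libraries alone with the block, 7885 with library weights, 1473 when HIF2A cKO diestrus replicate 2 was left out, 1753 for replicate 1 of that group, 2073 for WT diestrus replicate 1 and 2199 for WT diestrus replicate 4. The 15 at estrus became 1331 with library weights, 332 with the groups alone, 63 without both libraries numbered 3, 26 with no filter, 23 under quantile normalization, 7 at a pseudocount of 0.1 and 0 at a minimum of 5 FPKM, and 0 to 29 with each library left out. The 5 of the difference of cycle changes became 5225 with library weights, 1204 without both libraries numbered 3 and 462 with the block, 8 to 12 at a pseudocount of 0.1, under quantile normalization, with no filter or with the 7 genes listed at 0 kept, and 0 to 1181 with each library left out, the highest without HIF2A cKO diestrus replicate 3. The cause of these shifts was not tested. Counting error is unknown without read counts, and values under 1 FPKM, as for Adm2, are the least precise. With no filter, the Adm2 cycle change in HIF2A cKO passed (0.40, limma adjusted p = 0.0037).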
